A study of Mus musculus with 10 samples.

Results

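The nuclear genes that encode the 4 respiratory chain complexes and the ATP synthase (complex V) were examined in the adrenal gland of Crem knock-out (KO) and wild-type (WT) mice. Members were taken by gene symbol, without use of any measured value: genes of the Ndufa, Ndufb, Ndufc, Ndufs and Ndufv families, Sdha to Sdhd, the Uqcr genes, Cox4 to Cox8 and the Atp5 genes, with Cox7a1 left out. Where a gene had several probes, the probe with the highest mean was used. This gave 72 of the 19661 genes that had a measured probe of their own, with 34 in complex I, 4 in complex II, 7 in complex III, 15 in complex IV and 12 in complex V. Another 8 genes that match the symbols are not analysed here, since no measured probe was paired with them alone: Atp5g1, Atp5g2, Atp5h, Atp5l, Atp5md, Cox5b, Ndufs3 and Uqcrb.

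Whole adrenal RNA from 5 KO mice (Crem-/-) and 5 WT mice was hybridized to Affymetrix arrays, 1 array per mouse, and the design compares the genotypes. CREM is a transcription factor of the cAMP response element family. All mice were untreated and 8 weeks old, came from a mixed background (129Pas x C57Bl/J) and were killed at 0 h circadian time, so no treatment or time point separates the groups. The labels put the arrays in 4 batches, without saying what a batch stands for. Batch 1 holds KO 1, KO 2 and WT 1, batch 2 holds KO 3 and KO 4, batch 3 holds KO 5, WT 2, WT 3 and WT 4, and batch 4 holds WT 5. The numbers name the arrays within a genotype and do not pair KO with WT mice.

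In the inner mitochondrial membrane, complexes I and II take electrons from NADH and succinate, complex III passes them to cytochrome c, and complex IV hands them to oxygen. Complexes I, III and IV pump protons, and complex V uses the returning protons to make ATP. Most subunits are encoded in the nucleus and a few in mitochondrial DNA, and several complex IV subunits have isoforms that are restricted to heart, muscle, brown fat or testis. The steroid-producing cells of the adrenal cortex are rich in mitochondria, where cholesterol side-chain cleavage takes place. Brown adipocytes, which can lie around the gland, are rich in mitochondria too. Transcripts of mitochondrial DNA are not analysed here.

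The levels are log2 values after RMA, a method that corrects background, normalizes arrays by quantiles and summarizes the probes of a transcript. A difference of 1 is therefore a 2-fold difference in signal, and each difference below is the KO mean minus the WT mean. RMA gives no detection call, so whether a gene with a low level is expressed cannot be judged, and levels of different probes are not compared. Crem itself had levels of 7.38, 7.97, 6.86, 6.84 and 7.77 on the KO arrays and 7.45, 7.23, 8.14, 7.62 and 7.27 on the WT arrays. These overlap, and the sources used here do not say where the probe lies relative to the disrupted part, so the genotype is that of the labels. Cortical markers were high on every array (mean of 11 genes 12.28 to 12.83 in KO and 12.70 to 12.88 in WT). Markers of chromaffin cells, which make up the medulla, averaged 8.13 on KO 1 and 10.98 to 11.85 on all others. Liver markers had a mean of 13.15 on KO 1 and at most 9.43 elsewhere, so that KO 1 stands apart. In such bulk tissue, fewer cells of a type and less RNA per cell cannot be told apart.

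No member differed between KO and WT by the adjusted test. With limma, 0 of the 72 members passed an adjusted p under 0.05, as did 0 of all 25664 probes tested (0%), and every member had an adjusted p of 0.999. At an unadjusted p under 0.05 there were also 0 members, where 3.42% of all probes lay below that limit. The levels overlapped between the genotypes in every member, while 0.682% of all probes had no overlap. A p that misses the threshold does not show that the genotypes are alike, and the differences below are given with their standard errors (SE).

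The mean level of the 72 members was 11.26, 10.44, 11.57, 10.99 and 10.40 on KO 1 to KO 5, and 11.12, 10.87, 10.47, 10.58 and 11.01 on WT 1 to WT 5. KO arrays held both ends of this order, with KO 3 and KO 1 highest and KO 5 and KO 2 lowest, and the 5 WT arrays lay between them. Averaged over arrays, KO had 10.93 ± 0.51 and WT 10.81 ± 0.28 (SD, n = 5 per genotype). The difference of 0.12 was smaller than the pooled SD of 0.41. Of the members, 62 were higher and 10 lower in KO before any test (86.1% higher, against 49.4% of all probes), with a median difference of 0.13 (all probes -0.00) and a range of -0.25 to 0.54.

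The members moved together from array to array. KO 3 had the highest level in 60 members (83.3%, against 17.6% of all probes), KO 1 in 7, WT 1 and KO 4 in 2 each and WT 5 in 1. The lowest level lay on KO 2 or KO 5 in 53 members (73.6%, against 32.8% of all probes) and on WT 3 in 10. On KO 3 71 of the members were above their own mean over the 10 arrays, by a median of 0.70, and on KO 1 67 were, by a median of 0.40. On KO 5 3 members were above their own mean (median deviation -0.47), on KO 2 there was 1 (-0.41), on WT 3 there were 3 (-0.43) and on WT 4 there were 5 (-0.26). WT 1, KO 4 and WT 5 were moderately high (median deviations 0.23, 0.13 and 0.12), and WT 2 was in the middle. The array pattern thus runs within both genotypes. The range of a member over the 10 arrays had a median of 1.24, against 0.77 for all probes.

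**Figure D1:**
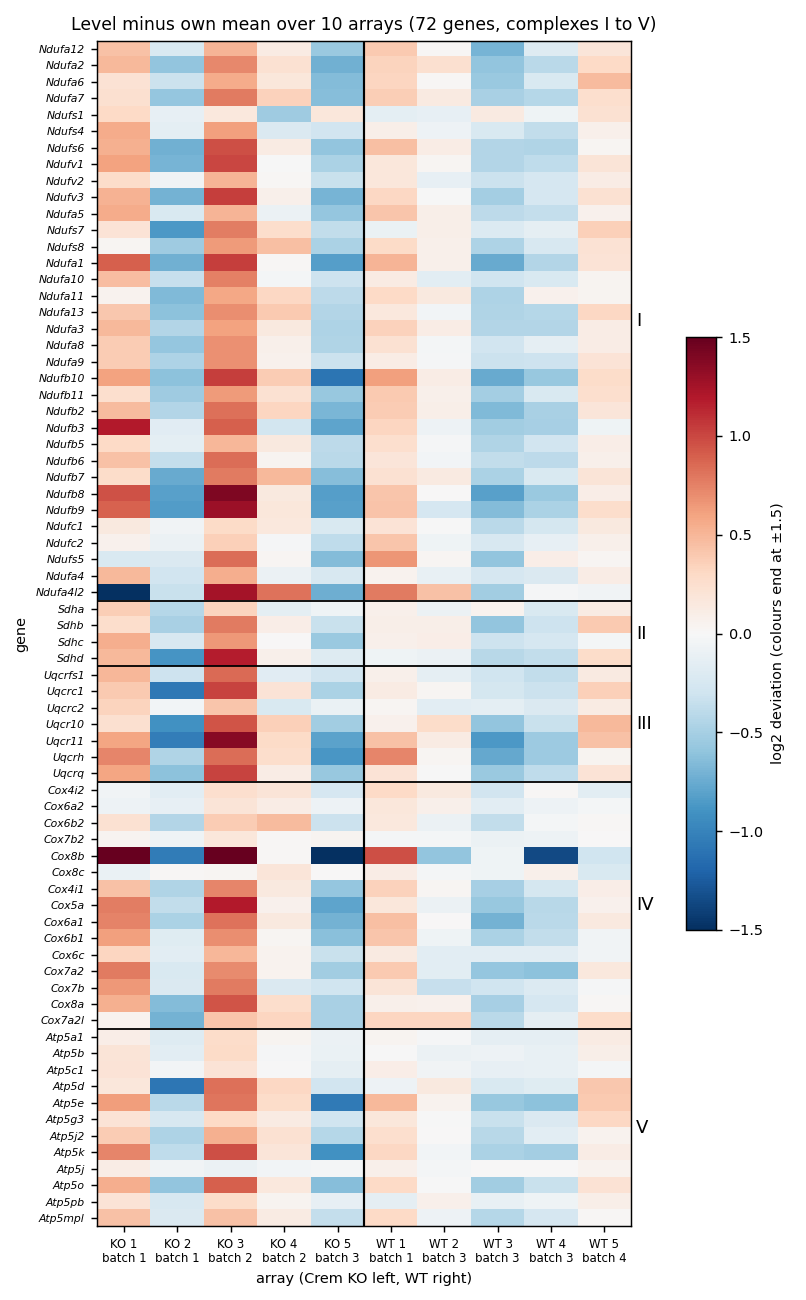
Each row is one of the 72 genes and each column an array, with the 5 KO arrays left of the line and the 5 WT arrays right of it. Color gives the log2 level minus the gene's own mean over the 10 arrays. KO 3 and KO 1 are red in most rows (71 and 67 genes above their own mean), KO 2, KO 5 and WT 3 are blue in most rows (1, 3 and 3 genes above it), and Atp5j, Cox8c and Ndufs1 do not follow the columns.

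Because the members shared 1 pattern over the arrays, the 250 bases before each RefSeq gene start (mouse assembly GRCm38.p6) were searched for short motifs on both strands. RefSeq gave such a sequence for 58 of the 72 members and for 27025 genes in all, and a gene with several starts was counted once. The full cAMP response element, TGACGTCA, was found in 4 members (6.9%, against 1.77% of all genes), and its shorter core TGACG, which is part of it, in 20 (34.5%, against 19.8%). GCATGCGC, the core bound by NRF1, a regulator of respiratory genes, was found in 6 members (10.3%, against 2.56%). CCGGAAGT, an ETS site of the kind bound by GABP, was found in 2 (3.45%, against 3.23%), AAGATGGC, the YY1 core, in 1 (1.72%, against 1.83%), and AAGGTCA, the element shared by ERR and SF1, in 3 (5.17%, against 4.7%). A match says only that these letters are there, and the members and all genes were not matched for base composition. The 4 promoters with the full element that CREM and its relatives can bind are shown, with every matched motif in capitals, read 5′ to 3′ toward the gene start.
Ndufa10, chr1:92473759-92474008, minus strand: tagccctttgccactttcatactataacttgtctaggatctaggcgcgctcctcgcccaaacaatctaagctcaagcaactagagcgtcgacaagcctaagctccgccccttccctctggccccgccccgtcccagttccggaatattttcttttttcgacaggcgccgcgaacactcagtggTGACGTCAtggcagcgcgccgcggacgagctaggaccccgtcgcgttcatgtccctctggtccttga
Ndufa11, chr17:56717512-56717761, plus strand: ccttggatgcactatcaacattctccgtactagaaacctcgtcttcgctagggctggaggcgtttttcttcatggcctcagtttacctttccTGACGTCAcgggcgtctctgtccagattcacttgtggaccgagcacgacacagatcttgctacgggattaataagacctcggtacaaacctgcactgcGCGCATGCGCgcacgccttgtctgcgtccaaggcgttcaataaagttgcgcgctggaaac
Ndufb2, chr6:39592315-39592564, plus strand: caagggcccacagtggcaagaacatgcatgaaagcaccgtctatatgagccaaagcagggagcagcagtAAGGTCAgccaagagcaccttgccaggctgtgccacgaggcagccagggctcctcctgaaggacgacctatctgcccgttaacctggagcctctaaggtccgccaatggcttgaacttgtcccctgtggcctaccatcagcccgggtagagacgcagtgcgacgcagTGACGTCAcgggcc
Uqcrfs1, chr13:30545317-30545566, minus strand: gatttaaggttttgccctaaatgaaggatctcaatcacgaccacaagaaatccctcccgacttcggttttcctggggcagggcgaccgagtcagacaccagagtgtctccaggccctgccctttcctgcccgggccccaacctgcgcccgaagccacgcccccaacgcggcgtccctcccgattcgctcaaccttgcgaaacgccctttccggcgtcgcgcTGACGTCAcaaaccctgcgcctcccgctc
In the printed promoters of Ndufa10 and Uqcrfs1 the capitals are the full element alone. That of Ndufa11 also has an NRF1 core, which matches on both strands so that the matches overlap, and that of Ndufb2 also has AAGGTCA. The KO minus WT differences of these genes were 0.21 for Ndufa10, -0.04 for Ndufa11, 0.20 for Ndufb2 and 0.23 for Uqcrfs1 (SE 0.21, 0.24, 0.31 and 0.24), so none was larger than its SE, and all lay inside the range of the other members.

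Complex I, the NADH dehydrogenase, had a mean level of 11.10, 10.29, 11.48, 10.87 and 10.21 on the KO arrays and 11.04, 10.76, 10.28, 10.45 and 10.90 on the WT arrays. Of its 34 genes 28 were higher and 6 lower in KO, with a median difference of 0.12 and a range of -0.25 to 0.34. The 34 were grouped by symbol, so they take in Ndufa4, which is found with complex IV, and its paralogue Ndufa4l2. The low end of the range, -0.25, is that of Ndufa4l2, and both genes are described with complex IV below. Ndufs4, an accessory subunit of the NADH-oxidizing module, had the smallest p of the complex, with levels of 11.35, 10.65, 11.41, 10.58 and 10.51 in KO and 10.89, 10.72, 10.57, 10.43 and 10.87 in WT. KO 1 and KO 3 lay above all WT arrays, while the other 3 KO arrays lay within the WT range. The difference was 0.20 (SE 0.20, unadjusted p = 0.331 and adjusted p = 0.999 in limma). Ndufa10, an accessory subunit of the membrane arm whose promoter is printed above, had 12.23, 11.42, 12.52, 11.73 and 11.45 in KO and 11.89, 11.60, 11.47, 11.53 and 11.80 in WT. Again KO 1 and KO 3 were above every WT array, and KO 2 and KO 5 below every one.

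The 10 genes of the NADH-oxidizing module had a mean of 10.66 ± 0.51 in KO and 10.56 ± 0.30 in WT, and the 3 genes of the quinone-reducing module 10.85 ± 0.51 in KO and 10.81 ± 0.26 in WT (SD, n = 5 arrays each). The 19 genes of the membrane arm and its accessory subunits had 10.82 ± 0.58 in KO and 10.69 ± 0.34 in WT, and each of these modules was highest on KO 3. The quinone-reducing module was lowest on KO 2 (10.29), and the other modules on KO 5 (10.13 and 10.19). Ndufb8, Ndufb9 and Ndufb10, subunits of the distal membrane arm, had wide ranges of 2.22, 2.12 and 2.13. Ndufb8 had 11.07, 9.30, 11.52, 10.26 and 9.29 in KO and 10.53, 10.12, 9.30, 9.56 and 10.21 in WT, so that KO 2, KO 5 and WT 3 were almost equal at the low end. Ndufc1, a small membrane subunit, had the narrowest range of the complex, 0.69, with 11.23, 11.02, 11.37, 11.24 and 10.85 in KO and 11.28, 11.07, 10.67, 10.82 and 11.23 in WT. Here WT 3 and WT 4 were the lowest arrays, and the difference was 0.13 (SE 0.15).

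Ndufs1, the large iron-sulfur subunit that carries electrons through the NADH-oxidizing module, stood apart from the others and is named after its values were seen. Its levels were 11.47, 11.04, 11.33, 10.64 and 11.34 in KO and 11.02, 11.04, 11.30, 11.10 and 11.40 in WT. KO 4 was lowest, while KO 5 and WT 3, which were low in nearly all other members, were above the mean of the gene. Ndufs5, a subunit of the intermembrane side, was also named after its values were seen and had 10.23, 10.24, 11.29, 10.49 and 9.80 in KO and 11.12, 10.48, 9.86, 10.56 and 10.48 in WT. KO 3 was highest and WT 1 came next, while KO 1 was not raised. The difference was -0.09 (SE 0.29) over all arrays and -0.68 with batch as a block (limma, unadjusted p = 0.038, adjusted p = 0.582).

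In complex II, succinate dehydrogenase, which also belongs to the citric acid cycle, all 4 genes were a little higher in KO, with differences of 0.02 to 0.26. The mean level was 11.95, 11.02, 12.27, 11.54 and 11.24 in KO and 11.57, 11.53, 11.21, 11.24 and 11.72 in WT. Sdhd, one of the membrane anchors, varied most, with 11.40, 10.03, 12.10, 11.00 and 10.72 in KO and 10.86, 10.83, 10.50, 10.55 and 11.20 in WT. KO arrays again held both ends, with KO 3 at the top and KO 2 at the bottom. The difference of Sdhd was 0.26 (SE 0.33), and that of Sdhc, the other anchor, 0.16 (SE 0.23). Sdha, the flavoprotein that oxidizes succinate, varied least, with 12.96, 12.16, 12.92, 12.44 and 12.52 in KO and 12.66, 12.50, 12.64, 12.36 and 12.71 in WT. WT 3 and KO 5 lay near the middle of this gene, while KO 2 was lowest.

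Complex III, the cytochrome c reductase, had the widest median range per gene, 1.71. The median range was 1.25, 1.29, 1.13 and 0.75 in complexes I, II, IV and V. In complex IV it was 1.36 for the 8 widely expressed subunits and 0.50 for the 6 tissue-restricted isoforms, most of which had low levels. The mean level of complex III was 11.58, 10.46, 12.02, 11.21 and 10.58 in KO and 11.34, 11.12, 10.60, 10.71 and 11.35 in WT. All 7 genes were highest on KO 3 and all 7 were higher in KO on average, by 0.03 to 0.23. Uqcr11, a small subunit, varied most, with 10.32, 8.69, 11.09, 10.01 and 8.93 in KO and 10.17, 9.85, 8.87, 9.18 and 10.17 in WT. KO 2, WT 3, KO 5 and WT 4 made up its low end. The difference of 0.16 (SE 0.46) was far smaller than the range of 2.40.

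Uqcrfs1, the Rieske iron-sulfur protein whose promoter is printed above, had 10.72, 9.91, 11.07, 10.05 and 9.93 in KO and 10.30, 10.09, 9.92, 9.85 and 10.36 in WT. KO 3 and KO 1 lay above all WT arrays and the other KO arrays within the WT range. Uqcrc2, a core protein, had the narrowest range (0.64), with 12.91, 12.53, 12.99, 12.34 and 12.47 in KO and 12.60, 12.41, 12.42, 12.36 and 12.69 in WT. Its difference was 0.15 (SE 0.14, limma adjusted p = 0.999). Uqcrc1, the other core protein, had a range of 2.09 and a difference of 0.03 (SE 0.34), so the core proteins varied to an unequal extent. The 4 small subunits averaged 10.86 ± 0.78 in KO and 10.71 ± 0.47 in WT (SD over 5 arrays).

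Complex IV, cytochrome c oxidase, had a mean level of 10.46, 9.66, 10.68, 10.14 and 9.55 in KO and 10.29, 9.95, 9.67, 9.73 and 10.01 in WT. Of 15 genes 13 were higher and 2 lower in KO, with a median difference of 0.15. The 8 widely expressed subunits were all a little higher, by 0.12 to 0.34, and averaged 11.76 ± 0.58 in KO and 11.53 ± 0.30 in WT (SD over 5 arrays). Cox7b, one of these, had 11.07, 10.20, 11.20, 10.20 and 10.12 in KO and 10.61, 10.07, 10.12, 10.21 and 10.40 in WT. KO 1 and KO 3 were well above the others, and the remaining KO arrays lay within the WT range. The difference was 0.28 (SE 0.24, limma unadjusted p = 0.266, adjusted p = 0.999). Cox5a, the subunit that binds the regulator diiodothyronine, and Cox7a2 had differences of 0.34 (SE 0.35) and 0.32 (SE 0.29).

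**Figure D2:**
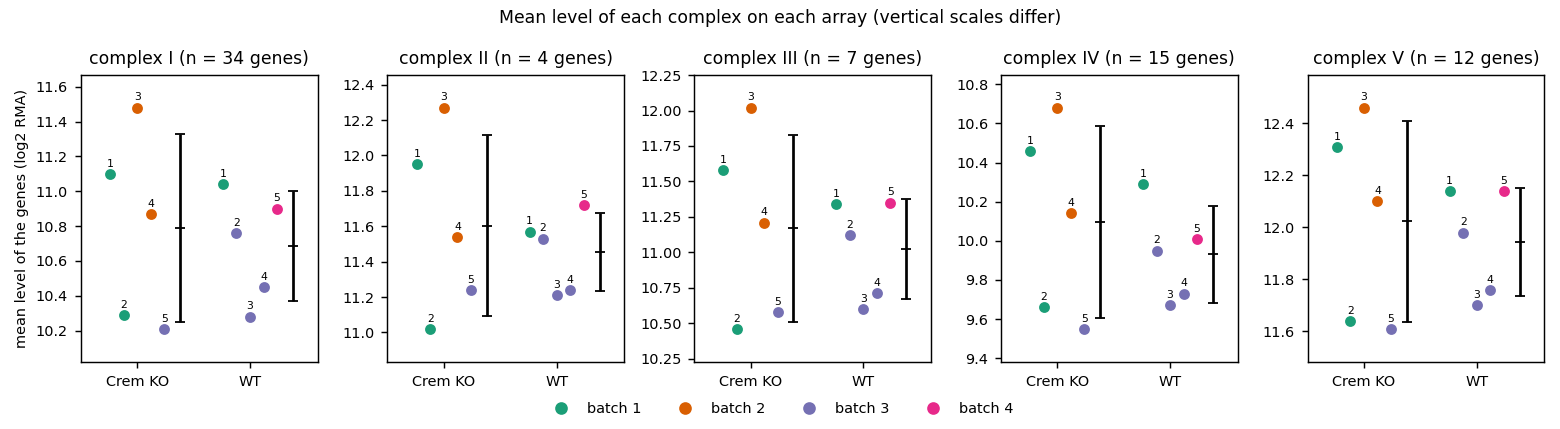
Mean log2 level of the genes of each complex on each array, KO left and WT right, with the replicate number above each point, the batch as color and the mean ± SD of 5 arrays beside each group. In all 5 panels KO 3 is the highest array and KO 2 or KO 5 the lowest, and the SD bars of KO and WT overlap.

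The isoforms of complex IV differed in how much they varied. Cox8b, the form of heart, muscle and brown fat, varied most of all members, with 13.05, 10.25, 13.47, 11.32 and 9.78 in KO and 12.27, 10.71, 11.24, 9.95 and 11.00 in WT. KO 3, KO 1 and WT 1 were highest and KO 5 and WT 4 lowest. Its difference of 0.54 (SE 0.73, limma adjusted p = 0.999) was the largest among the members, and it was -0.74 with batch as a block and -0.58 without KO 1 and KO 3. Cox8a, the widely expressed form, had 11.70, 10.51, 12.10, 11.42 and 10.67 in KO and 11.24, 11.23, 10.66, 10.91 and 11.18 in WT. Its range was 1.58, against 3.69 for Cox8b, and WT 1 did not stand out from WT 2 or WT 5. Cox8c, the testis form, had a range of 0.42 and was highest on KO 4. Its means of 7.49 in KO and 7.44 in WT lay near the array medians, so whether it is expressed cannot be judged.

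In the Cox4, Cox6a, Cox6b and Cox7b families the widely expressed form had the wider range. The other forms, Cox4i2, Cox6a2, Cox6b2 and Cox7b2, lay near or below the array medians of 7.17 to 7.25. Whether they are expressed cannot be judged, so the ranges do not show that the isoforms are regulated differently. Cox4i1 had a range of 1.31 and a difference of 0.12 (SE 0.27), and Cox4i2, a form of few tissues, a range of 0.59 and a difference of -0.01 (SE 0.14). For Cox6a1 the range was 1.52 and the difference 0.21 (SE 0.33), and for Cox6a2, the form of heart and muscle, 0.36 and 0.01 (SE 0.10). Cox6b1 had a range of 1.33 and a difference of 0.21 (SE 0.26), and Cox6b2, the testis form, 0.91 and 0.13 (SE 0.19). Cox7b2, another testis form, had a range of 0.25 and levels of 5.14 to 5.39, which are low on this scale. Its difference was 0.09 (SE 0.08), and KO 3 at 5.39 was its highest array.

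Cox7a2l, a factor that joins complexes III and IV in supercomplexes, was lower in KO over all arrays, unlike its relative Cox7a2. Its levels were 11.21, 10.45, 11.57, 11.48 and 10.67 in KO and 11.48, 11.48, 10.75, 11.02 and 11.43 in WT. WT 1, WT 2 and WT 5 were about as high as KO 4, and KO 1 was not raised. The difference was -0.15 (SE 0.24). Fitted with a batch block it was -0.52, and the batches that hold both genotypes gave -0.65 (batch 1) and -0.41 (batch 3). In these fits Cox7a2 was lower in KO too, by -0.10 with the block, -0.12 in batch 1 and -0.08 in batch 3. Ndufa4, which is named for complex I and found with complex IV, had 13.22, 12.44, 13.27, 12.64 and 12.49 in KO and 12.78, 12.62, 12.48, 12.51 and 12.84 in WT, with KO 1 and KO 3 above all others (difference 0.17, SE 0.18).

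Ndufa4l2, a paralogue of Ndufa4 that is induced in hypoxia, went another way on KO 1. Its levels were 7.76, 9.06, 10.64, 10.20 and 8.66 in KO and 10.17, 9.83, 8.87, 9.37 and 9.34 in WT. KO 1 was the lowest array, although it was high in 67 members, and KO 3, KO 4 and WT 1 were highest. The difference was -0.25 (SE 0.50) over all arrays, 0.12 without KO 1 and -1.20 with batch as a block (limma, unadjusted p = 0.024, adjusted p = 0.582). Th, the tyrosine hydroxylase of chromaffin cells, was at 8.40 on KO 1, at 11.34 to 12.72 on KO 2 to KO 5 and at 11.82 to 12.70 in WT. Of the 11 chromaffin genes measured, 0 were higher in KO and 11 lower (median -0.80), with list means of 8.13 to 11.85 in KO and 11.11 to 11.85 in WT. Their part in the level of Ndufa4l2 was not tested.

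Complex V, the ATP synthase, varied least of the complexes, with a median range of 0.75. Its mean level was 12.31, 11.64, 12.46, 12.10 and 11.61 in KO and 12.14, 11.98, 11.70, 11.76 and 12.14 in WT, and 10 of 12 genes were higher in KO, by a median over all 12 of 0.08. The range was 0.47 for Atp5a1 and 0.45 for Atp5b, the alpha and beta subunits of the catalytic head, and 0.35 for Atp5c1, the central stalk. Atp5c1 had 13.10, 12.86, 13.10, 12.89 and 12.76 in KO and 13.00, 12.84, 12.77, 12.79 and 12.87 in WT, with KO 1 and KO 3 above all WT arrays (difference 0.09, SE 0.10). In contrast Atp5d, the delta subunit of the same stalk, had a range of 1.91, with 12.18, 10.93, 12.84, 12.33 and 11.73 in KO and 11.94, 12.16, 11.78, 11.83 and 12.42 in WT. KO 2 lay well below all others, and the difference was -0.02 (SE 0.31).

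Atp5j, coupling factor 6 of the peripheral stalk, had the narrowest range of all members, 0.19. Its levels were 12.45, 12.29, 12.26, 12.30 and 12.31 in KO and 12.42, 12.31, 12.35, 12.35 and 12.40 in WT. KO 3, the highest array for most members, was its lowest, and KO 1 was highest. The difference was -0.04 (SE 0.08). Atp5o, another stalk gene that was named after its values were seen, had a range of 1.52, with 11.87, 10.73, 12.22, 11.48 and 10.69 in KO and 11.63, 11.32, 10.80, 10.99 and 11.54 in WT, so the stalk genes did not vary alike. Atp5mpl, a small membrane subunit, had the smallest p of the complex, with 12.31, 11.65, 12.31, 11.99 and 11.51 in KO and 12.17, 11.79, 11.44, 11.61 and 11.89 in WT (difference 0.18, SE 0.19, limma adjusted p = 0.999). Atp5g3, the c-ring gene that was measured, was highest on WT 5 (12.93) and KO 3 (12.92), with a difference of 0.03 (SE 0.16).

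Over all complexes genes with a narrow range were few. A range under 0.5 was found in 7 members, namely Atp5j, Cox7b2, Atp5c1, Cox6a2, Cox8c, Atp5b and Atp5a1. Cox7b2, Cox6a2 and Cox8c lay near or below the array medians of 7.17 to 7.25, so whether they are expressed cannot be judged. Atp5c1, Atp5b and Atp5a1 lay between 12.76 and 13.72, where the highest value of any probe was 14.64. A narrow range is therefore not read as steady expression. The range was above 2.0 in 8 members, namely Cox8b, Ndufa4l2, Uqcr11, Ndufb8, Ndufb10, Ndufb9, Uqcrc1 and Sdhd.

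The sign of the difference depended on which arrays were compared. With batch as a fixed block, 8 members were higher and 64 lower in KO (88.9% lower, against 58.9% of all probes), with a median difference of -0.26 (all probes -0.06). Of the members, 2 were lower at an unadjusted p under 0.05, Ndufa4l2 and Ndufs5 (2.78%, against 5.38% of all probes), and 0 passed the adjusted threshold. Within batch 1, which sets KO 1 and KO 2 against WT 1, 12 members were higher in KO (16.7%, against 43.6% of all probes), with a median of -0.25, and Ndufs5 alone was lower at an unadjusted p under 0.05 (1 member, 1.39%, against 0.522% of all probes). Within batch 3, which sets KO 5 against WT 2, WT 3 and WT 4, 7 were higher (9.72%, against 40.4% of all probes), with a median of -0.26. Batch 2 holds KO arrays alone and batch 4 a single WT array, so KO 3, where most members peaked, has no WT array of its own batch. For KO 3 and KO 4 batch and genotype cannot be told apart. KO 4 shares both with KO 3, but its member mean was 10.99 against 11.57 on KO 3. KO 4 was the highest array in 2 members, against 60 for KO 3. What sets KO 3 apart from KO 4 was not tested. The genotype difference of the fixed block fit comes from batches 1 and 3 alone. It is therefore not a result separate from those within the single batches.

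The level on KO 5 lay below all 3 WT arrays of batch 3 in 44 members (61.1%, against 30.1% of all probes). KO 1 and KO 2 were both below WT 1 in 15 members (20.8%, against 38.5% of all probes). KO 1 was above WT 1 in the mean of the members (11.26 against 11.12) and KO 2 below it (10.44), so the KO arrays of batch 1 lay on either side of its WT array. Leaving out KO 3 gave 32 members higher in KO (44.4%, against 45% of all probes) and a median difference of -0.01, and leaving out KO 1 and KO 3 gave 3 members higher (4.17%, against 43.6% of all probes) and a median of -0.19. The 3 that were higher without those arrays were Ndufc1, Cox7b2 and Cox8c. Leaving out KO 2, KO 5 and WT 3 gave 70 members higher (97.2%, against 54.1% of all probes), a median of 0.37, and 16 members higher at an unadjusted p under 0.05 (22.2%, against 4.88% of all probes). None passed the adjusted threshold in any of these fits. KO 1 and KO 3 had the highest member means, and KO 2, KO 5 and WT 3 the lowest. Both shifts therefore followed from the choice of arrays, and the unadjusted p of the 16 members are no test of genotype.

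**Figure D3:**
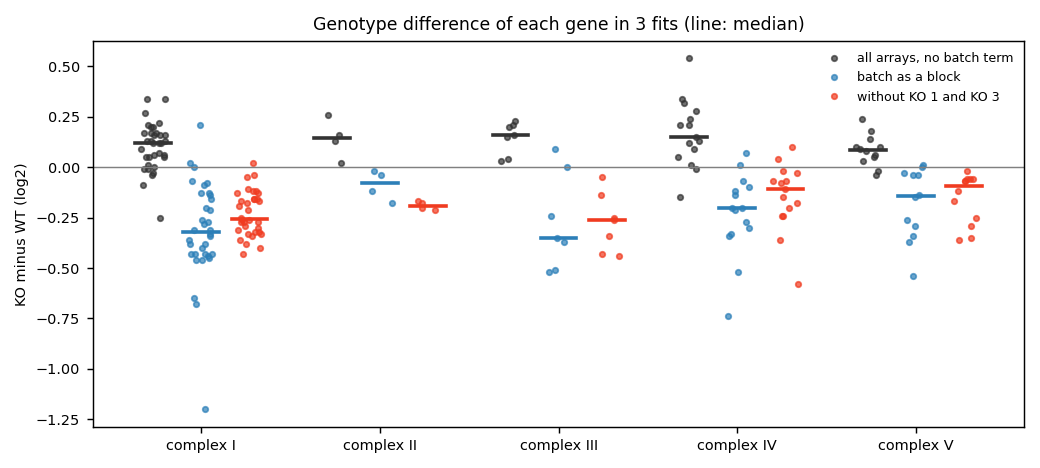
KO minus WT difference (log2) of each of the 72 genes in 3 fits, by complex, with a line at the median. Without a batch term most genes lie above 0 (62 of 72), while with batch as a block 64 lie below 0 and without KO 1 and KO 3 69 do.

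Levels of other tissues moved with the members on some arrays. Ucp1, the uncoupling protein that defines brown fat, had 12.16, 7.29, 12.64, 6.66 and 7.33 in KO and 11.74, 8.06, 10.54, 6.18 and 9.17 in WT. KO 3, KO 1 and WT 1 were its highest arrays, as they were for Cox8b and for Cox7a1, the heart, muscle and brown fat form that was not counted as a member (11.78, 8.36, 12.43, 9.05 and 8.33 in KO and 10.88, 9.12, 9.49, 8.51 and 9.75 in WT). Over the 9 brown fat genes the mean level was 7.22 to 10.48 in KO and 7.21 to 9.17 in WT, and 8 were higher in KO (median 0.44). The members and the brown fat genes parted on KO 4 and WT 3. KO 4 had a brown fat mean of 7.22 and a member mean of 10.99, and WT 3 had 8.53 and 10.47. Skeletal muscle genes had means of 6.45 to 7.05 in KO and 6.49 to 6.73 in WT, and 7 of 12 were higher in KO (median 0.04). Ckm, the muscle creatine kinase, lay between 6.84 and 7.27 on all arrays. Tnni2 and Myh4, also of the muscle list, had ranges of 0.44 and 0.49, while Myl1 and Acta1 did not stay level. Myl1, a myosin light chain, was at 8.78 on KO 1 and 8.72 on KO 3 and between 5.04 and 6.46 on the others. Acta1, skeletal actin, was at 9.42 on KO 1 and between 7.26 and 8.37 on the others. The 12 adipocyte genes measured had means of 8.52 to 12.49 in KO and 9.11 to 10.40 in WT, and all 12 were higher in KO (median 0.54), while 9 of 9 liver genes were higher (median 1.32). Of the 11 cortical genes 1 was higher (median -0.12), of the 10 endothelial genes 0 were (median -0.33), and of the 8 mural genes 4 were (median -0.09). Several of these medians rest on KO 1 and KO 3. Without those arrays the median was -0.42 for brown fat, -0.60 for adipocyte, -0.39 for liver, -0.08 for muscle, 0.04 for cortical, -0.13 for chromaffin, -0.27 for endothelial and -0.22 for mural genes. With batch as a block, 4 of 9 brown fat genes (median -0.00), 8 of 12 adipocyte genes (0.24) and 7 of 9 liver genes (0.79) were higher in KO. The part of these tissues in the member levels was not tested.

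Clk1, a kinase that acts on splicing factors, was looked at because earlier results of these data had set some arrays apart by it. Its levels were 9.85, 11.69, 8.90, 8.28 and 12.11 in KO and 8.87, 8.84, 12.02, 10.66 and 9.09 in WT. The 4 arrays with the highest level, KO 5, WT 3, KO 2 and WT 4, were the 4 with the lowest mean of the members. The part of whatever sets those arrays apart was not tested.

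**Figure D4:**
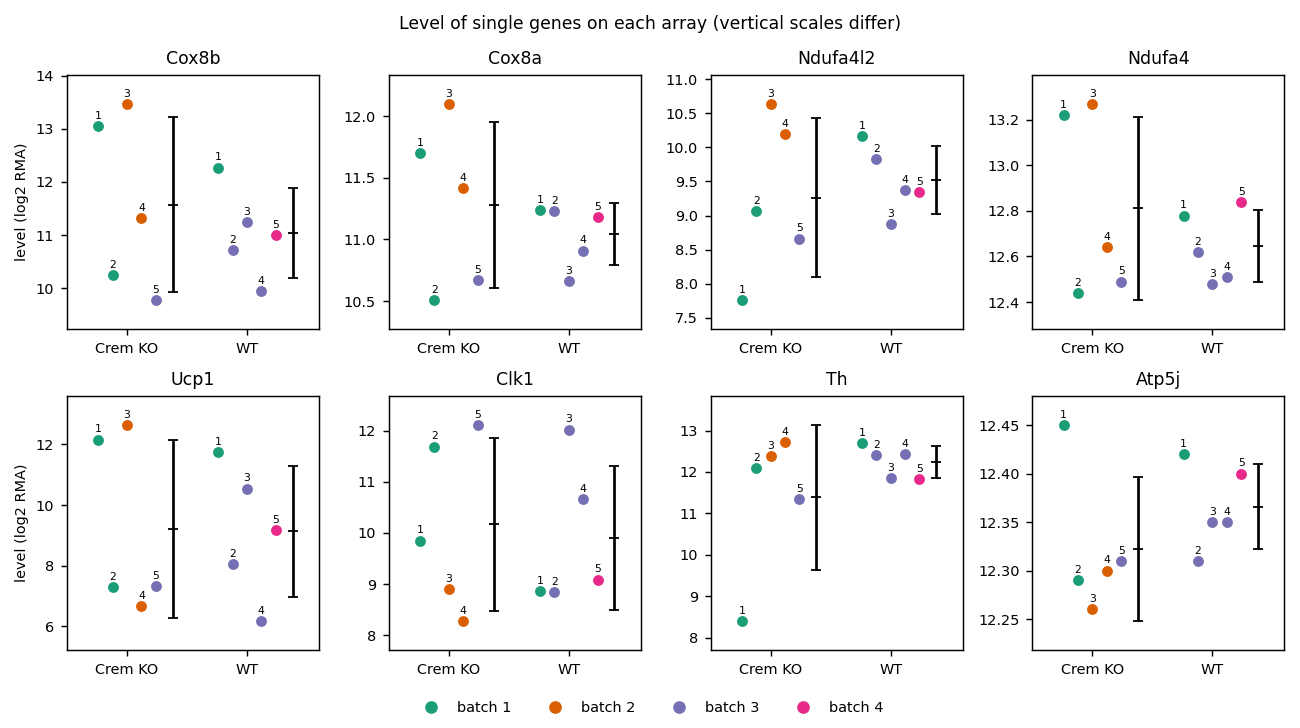
Log2 level of 8 genes on each array, KO left and WT right, with the replicate number above each point, the batch as color and the mean ± SD of 5 arrays beside each group. Cox8b and Ucp1 share KO 3, KO 1 and WT 1 as their highest arrays, Ndufa4l2 and Th share KO 1 as their lowest, Clk1 is highest on KO 5, WT 3 and KO 2, and the panel of Atp5j covers a range of only 0.19.

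Other mitochondrial gene lists did not differ by the adjusted test either, with 0 called in each. Of 42 measured assembly factors of the complexes, 24 were higher and 18 lower in KO (median 0.03), and the batch block gave 18 higher and 24 lower (median -0.04). Cox20, which assists assembly of complex IV, had a difference of 0.28 (SE 0.13) and Sco1, a copper chaperone of the same complex, -0.23 (SE 0.12). With the batch block these were 0.04 (SE 0.14) and -0.06 (SE 0.13). Of 13 measured genes for electron carriers and their synthesis, 11 were higher (median 0.13), Coq9 by 0.20 (SE 0.24) and Coq2 by 0.12 (SE 0.13), both acting in ubiquinone synthesis. With the batch block 5 were higher and 8 lower (median -0.13), and without KO 1 and KO 3 the median was -0.13. These lists were highest on KO 3, as the members were.

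Of 15 measured genes of the citric acid cycle and pyruvate dehydrogenase, 14 were higher in KO (median 0.19), and Dlat and Pdhx, of pyruvate dehydrogenase, had differences of 0.31 (SE 0.33) and 0.24 (SE 0.18). This list was highest on KO 3 (11.91), but its lowest array was KO 4 (10.87), and WT 3 (11.38) was not low. With the batch block 8 were higher and 7 lower (median 0.00), and without KO 1 and KO 3 the median was -0.22. Of 13 measured genes of fatty acid oxidation, 11 were higher (median 0.14), but 2 were higher and 11 lower with the batch block (median -0.15), and the median was -0.27 without KO 1 and KO 3. Cpt1a, the enzyme that commits fatty acids to import, went the other way, at 10.66, 11.11, 10.97, 11.46 and 11.28 in KO and 11.40, 11.82, 11.22, 11.60 and 11.74 in WT. KO 1, KO 2 and KO 3 lay below all WT arrays, KO 4 and KO 5 did not, and the difference was -0.46 (SE 0.17, limma unadjusted p = 0.0207, adjusted p = 0.999).

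The 16 measured regulators of mitochondrial genes had 9 higher and 7 lower in KO (median 0.04; 8 each and -0.05 with the batch block), and their mean stayed between 7.97 and 8.12 on all arrays. Pprc1, a coactivator related to PGC-1, had 7.79, 7.64, 7.88, 7.85 and 7.67 in KO and 8.25, 8.21, 7.81, 8.08 and 8.26 in WT. WT 3 alone lay within the KO range. The difference was -0.36 (SE 0.11, limma unadjusted p = 0.00784, adjusted p = 0.999), and the values of batches 1 and 3 were -0.53 and -0.37. Nrf1 had a difference of -0.16 (SE 0.09). Esrra, an orphan receptor that acts on respiratory genes, followed the members, with 8.89, 7.63, 9.40, 8.74 and 8.08 in KO and 8.65, 8.73, 8.13, 8.44 and 8.53 in WT, highest on KO 3 and lowest on KO 2 (difference 0.05, SE 0.30).

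Of 11 measured carriers and import genes of the mitochondrial membranes, 1 was higher and 10 lower in KO (median -0.08), and 4 were higher and 7 lower with the batch block (median -0.04). Their mean was lowest on KO 3 (10.97), the array where the members were highest, and highest on WT 5 (11.33). Vdac1 and Vdac2, the channels of the outer membrane, had differences of -0.14 (SE 0.13) and -0.13 (SE 0.14). Of the subunits that the symbols did not take in, Cyc1, the cytochrome c1 of complex III, had 12.14, 11.03, 12.62, 11.74 and 11.33 in KO and 11.76, 11.61, 11.24, 11.27 and 11.76 in WT, highest on KO 3 and KO 1 as the members were and lowest on KO 2. Atpif1, the inhibitor of complex V, had 11.38, 11.99, 11.86, 12.26 and 11.83 in KO and 12.35, 12.31, 11.57, 12.12 and 12.42 in WT. KO 1 was its lowest array, and its difference was -0.29 (SE 0.20).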

How the data were processed

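Whole adrenal RNA of 5 KO and 5 WT mice was measured on 1 array each. The deposited values are log2 levels per probe; the labels name RMA, while its software, settings and any batch correction are not given in the sources. The table has 35557 rows, of which 9868 hold no value. After 25 control probes were left out, 25664 were tested. Of these, 20777 are paired with 1 symbol, 232 with several and 4655 with none, and 0 symbols changed when updated by Entrez ID. Values ran from 2.75 to 14.64, and array medians from 7.17 to 7.25. The number of arrays limits the precision.

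Genotypes were compared by fitting limma 3.58.1 (R 4.3.3; lmFit, then eBayes, genotype as sole term, two-sided p), adjusting p by Benjamini-Hochberg over all 25664 probes (threshold 0.05). Figures were drawn with matplotlib 3.10.9. Alternatives were batch as a fixed or random block (consensus correlation 0.172), single batches, other normalizations, averaging the probes of a gene (1 member had several), brighter probes, a trended robust variance, and arrays left out. The fit was also run on simulated data, where it missed most of the smallest changes that were put in. The labels number the mice, so arrays were taken as separate animals.

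Genes were named by rule: per complex the 2 smallest p and the widest and narrowest range, all measured isoforms, up to 2 genes of each other list, and tissue markers. Ndufs1, Ndufs5, Ndufb8, Ndufb9, Ndufb10, Cox5a, Atp5o, Atp5a1, Atp5b, Uqcrc1, Clk1, Esrra and Cox7a1 were named after their values were seen. Myh4 and Crem were also added outside the rule. The members, lists and arrays left out were chosen with earlier results of these data known.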

Additional observations from a re-analysis of the deposited data

Results flagged for a closer look

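Atp5j on KO 1 had a level of 12.45, while the other KO arrays lay between 12.26 and 12.31. The gap to the nearest of them was 0.764 of the range of the 5 KO arrays, above the limit of 0.71 (Dixon's test). Of 70 groups of 5 arrays examined, 1 had such an array, and chance gives about 1 in 20.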

How the results depend on the processing

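The count of members and of all probes past an adjusted p under 0.05 was 0 in every fit. At an unadjusted p under 0.05 there were 2 members lower with batch as a fixed block, 1 lower within batch 1 and 16 higher without KO 2, KO 5 and WT 3 (5.38%, 0.522% and 4.88% of all probes by the same rules). The number of members higher in KO was 8 with the fixed block, 12 within batch 1, 7 within batch 3 and 3 without KO 1 and KO 3, and 32 to 68 when single arrays were left out. The median difference was -0.01 to 0.25 when single arrays were left out. The sets left out, KO 1 with KO 3 and KO 2 with KO 5 and WT 3, were the arrays with the highest and the lowest member means. Their shifts followed from that choice and are no test of genotype.

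Of 17 genes, 17 kept their sign under a repeated quantile normalization, a shift of the arrays to the same median, the mean of all probes and the trended robust variance, as did 16 of 16 among brighter probes. With the fixed block 10 changed sign: Atp5c1 to -0.03, Atp5mpl -0.14, Cox8b -0.74, Ndufa10 -0.07, Ndufc1 -0.08, Sdha -0.04, Sdhc -0.18, Sdhd -0.02, Uqcr11 -0.51 and Uqcrfs1 -0.00. With the random block 1 did, Uqcr11 to -0.02. Within batch 1 there were 8: Atp5c1 -0.02, Atp5mpl -0.19, Cox8b -0.61, Ndufa10 -0.06, Ndufc1 -0.16, Sdha -0.10, Sdhd -0.14 and Uqcr11 -0.67. Within batch 3 there were 10: Atp5c1 -0.04, Atp5mpl -0.11, Cox7b -0.01, Cox8b -0.85, Ndufa10 -0.08, Ndufc1 -0.00, Ndufs4 -0.06, Sdhc -0.40, Uqcr11 -0.37 and Uqcrfs1 -0.02. Without KO 1 and KO 3 there were 12: Atp5c1 -0.02, Atp5mpl -0.06, Cox7b -0.11, Cox8b -0.58, Ndufa10 -0.12, Ndufs4 -0.11, Sdha -0.20, Sdhc -0.18, Sdhd -0.21, Uqcr11 -0.44, Uqcrc2 -0.05 and Uqcrfs1 -0.14. Without KO 2, KO 5 and WT 3 there was 1, Atp5d at 0.36. The cause was not tested.

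When single arrays were left out, the difference ran from -0.23 to 0.24 in Atp5d, -0.60 to 0.12 in Ndufa4l2, -0.06 to 0.13 in Sdha, -0.00 to 0.51 in Sdhd and -0.16 to 0.44 in Uqcr11, and kept its sign in the other 12 genes. No paired analysis was possible because the labels give KO and WT no shared replicate numbers. Signal over background is not known here, since RMA values carry none.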
